A study of Mus musculus with 16 samples.

Results

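The genes described are 8 structural genes of the photoreceptor outer segment disc: Prph2, Rom1, Prom1, Cdhr1, Abca4, Fscn2, Rp1 and Rp1l1. They were taken by name from a table of 32166 genes, and all 8 were found in it and passed the filter on low values. The table holds 16 RNA-seq libraries of GFP-positive cells sorted from mouse retinal organoids, which are retina-like tissues grown in culture from pluripotent stem cells. All cells carried the Nrlp-GFP transgene, in which the promoter of Nrl, the transcription factor that commits photoreceptors to the rod fate, drives green fluorescent protein.

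The groups differed in stem cell source and in day after the start of differentiation. ESC libraries came from embryonic stem cells of Nrlp-GFP blastocysts and numbered 3 at day 18, 3 at day 21 and 1 each at days 25, 28 and 35. iPSC libraries came from embryonic Nrl-GFP fibroblasts reprogrammed with inducible lentiviruses for Oct3/4, Sox2, Klf4 and c-Myc, and numbered 2 at day 18, 1 at day 21, 2 at day 25 and 1 each at days 28 and 35. All organoids were grown at 5% oxygen until day 10 and 20% from then on, with 1 mM taurine and 500 nM retinoic acid, whose start the labels put at day 10 in one place and day 14 in another. The full medium change at day 26, which also ended retinoic acid, fell between the day 25 and the day 28 collections. Medium, retinoic acid and day therefore cannot be told apart across that step. The labels do not say how many organoids, cultures or clones a library stands for, so the spread that the tests use may be technical.

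The outer segment is a modified cilium packed with membrane discs, in which light is captured. Prph2 and Rom1 are tetraspanin proteins that form complexes at the rims of the discs and hold their curvature. Prom1 and Cdhr1 sit at the base of the outer segment, where new discs form, Abca4 is a flippase that clears retinoid from disc membranes, and Fscn2 is an actin-bundling protein of photoreceptors. Rp1 and Rp1l1 bind the microtubules of the axoneme and help to stack the discs in line. Variants in several of these genes are known from inherited retinal disease.

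The libraries held 2573023 to 14454287 estimated counts in the transcript tables, and 1 count was worth 0.037 to 0.216 CPM, counts scaled to the library total. The first replicates of day 18 from ESC and from iPSC stood apart from the other 14 libraries. Their Nrl levels were 17.74 and 15.99 CPM, against 136 CPM or more in every other library, which goes against their label as Nrlp-GFP-positive cells, and their Mki67 levels, a marker of cycling cells, were 406 and 463 CPM, the highest of the 16. With each other they had a Pearson r of 0.992 across genes, the highest of all pairs of libraries, although their labels name different sources. The tests of each gene and list for day 35 against day 18 are therefore also given without this pair, and 0.721% of 15111 tested genes were then called higher and 0.271% lower. In all 16 libraries, fewer cells of a type and less RNA per cell cannot be told apart.

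Between day 18 and day 35 most of the 8 genes rose. Comparing day 35 with day 18 in a model with source and day (limma, 15202 genes tested), 6 of 8 rose past a Benjamini-Hochberg adjusted p of 0.05 and none fell. The background was 4.54% of all tested genes called higher. The 6 were Prph2, Rom1, Prom1, Fscn2, Rp1 and Rp1l1, and Cdhr1 and Abca4 missed the threshold. The median difference of the 8 was 3.16 on the log2(CPM + 1) scale, against 0.05 for all genes tested. Against a slope per day over all 16 libraries the same 6 were called, where the background was 6.81% of genes called higher. Without the pair of low Nrl at day 18, 0 of 8 passed for day 35 against day 18, with differences of 1.14 to 3.79, and 5 of 8 passed for the slope, Fscn2 missing it at adjusted p = 0.0515 (limma), where 3.19% of tested genes were called higher for the slope. Without the single iPSC library of day 35, 0 of 8 passed for day 35 against day 18 and 2 of 8 for the slope (limma), where 1.62% and 2.59% of tested genes were called higher.

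**Figure D1:**
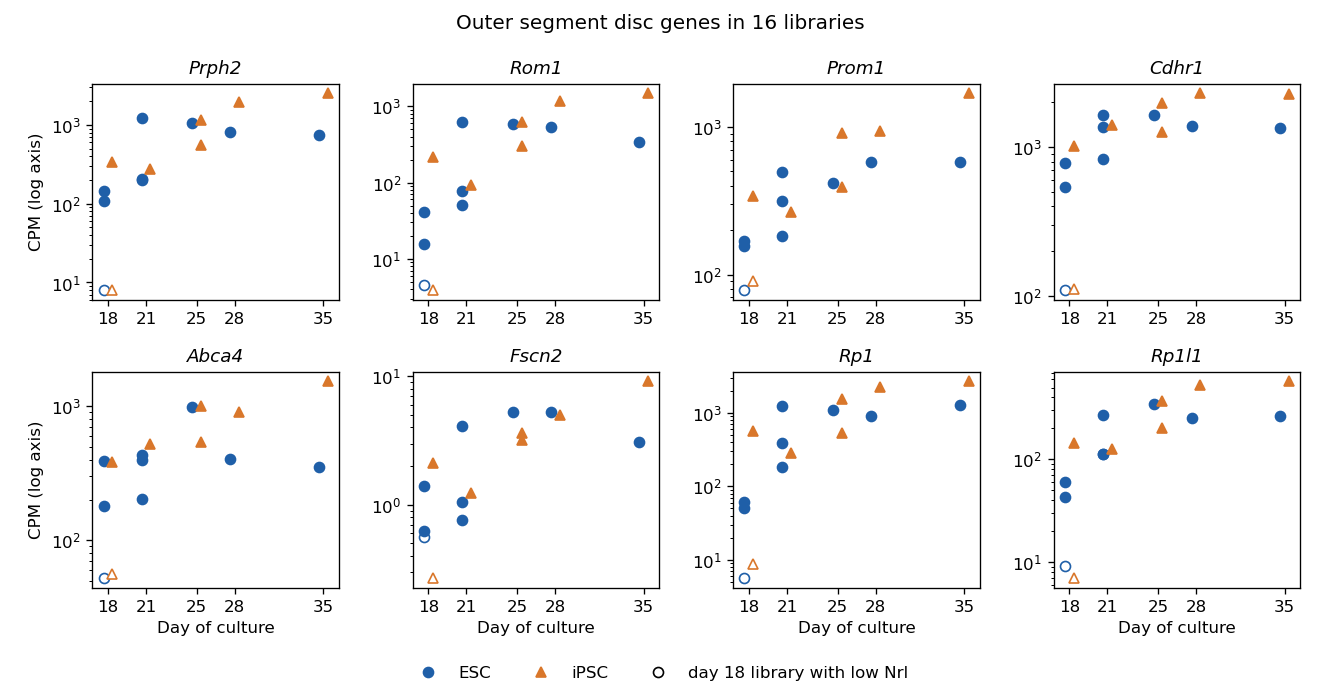
Level of each gene in CPM on a log axis against day of culture, with 1 point per library, circles for ESC, triangles for iPSC and open symbols for the day 18 libraries with low Nrl. The open symbols are the lowest points of every panel, and the iPSC library of day 35 is the highest point for every gene other than Cdhr1, whose highest point is the iPSC library of day 28.

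Among the rim proteins, Prph2 (ENSMUSG00000023978, chr17:46910459-46924933, plus strand, GRCm38) stood at 8.05, 145 and 109 CPM in the ESC and 7.97 and 341 CPM in the iPSC libraries of day 18. At day 21 it stood at 206, 202 and 1210 CPM in ESC and 273 CPM in iPSC, and at day 25 at 1064 CPM in ESC and 553 and 1144 CPM in iPSC. At days 28 and 35, with 1 library per source, it stood at 808 and 746 CPM in ESC and at 1943 and 2520 CPM in iPSC. Both day 35 libraries lay above all 5 of day 18. The mean was 122 ± 136 CPM (SD, n = 5) at day 18 and 1633 ± 1254 CPM (SD, n = 2) at day 35, a 13.4-fold ratio, and the fitted difference was 4.65 ± 1.27 (SE) on the log2(CPM + 1) scale (limma, adjusted p = 0.0424). Without the low-Nrl pair the ratio of means was 8.23-fold and the difference 2.86 (limma, adjusted p = 0.0998).

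Rom1 (ENSMUSG00000071648, chr19:8927391-8929356, minus strand) is the partner of Prph2 in rim complexes. Day 18 values were 4.605, 41.4 and 15.9 CPM in ESC and 3.88 and 216 CPM in iPSC. At day 21 Rom1 stood at 77.9, 50.7 and 627 CPM in ESC and 91.9 CPM in iPSC, so that 1 ESC library lay far above the other 3 of that day. It reached 592, 534 and 338 CPM in ESC and 303 with 620, 1156 and 1472 CPM in iPSC at days 25, 28 and 35. The fitted rise from day 18 to day 35 was 5.00 ± 1.26 (SE, limma, adjusted p = 0.0321), and 3.56 without the low-Nrl pair (limma, adjusted p = 0.126). Per kilobase of transcript the ratio of Rom1 to Prph2 ran from 0.256 in an ESC library of day 18 to 1.16 in the ESC library of day 28, and it was 0.795 and 1.03 in the ESC and iPSC libraries of day 35.

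The promoter stretches of this pair are shown because the genes moved together, with a Pearson r of 0.98 over the 14 libraries without the low-Nrl pair, and that of Abca4 because it holds the other kind of match. Each is the 250 bases before the RefSeq start site (assembly GRCm38.p6), and 3 motifs were searched in them on both strands: TAATCC and TAATCT, core sites of the homeodomain factor Crx and its relatives, and TGCTGA, a core of Maf-family sites such as those of Nrl. Capitals mark matches.
Prph2, chr17:46910228-46910477, plus strand: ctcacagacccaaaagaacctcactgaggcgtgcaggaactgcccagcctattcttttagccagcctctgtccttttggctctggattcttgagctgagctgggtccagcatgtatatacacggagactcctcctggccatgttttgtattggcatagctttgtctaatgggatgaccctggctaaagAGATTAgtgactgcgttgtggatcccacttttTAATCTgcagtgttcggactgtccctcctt
Rom1, chr19:8929357-8929606, minus strand: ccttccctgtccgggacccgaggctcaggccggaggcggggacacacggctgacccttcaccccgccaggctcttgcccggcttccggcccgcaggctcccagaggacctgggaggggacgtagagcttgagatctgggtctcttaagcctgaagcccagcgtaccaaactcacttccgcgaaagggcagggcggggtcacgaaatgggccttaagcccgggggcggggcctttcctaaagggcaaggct
Abca4, chr3:122044210-122044459, plus strand: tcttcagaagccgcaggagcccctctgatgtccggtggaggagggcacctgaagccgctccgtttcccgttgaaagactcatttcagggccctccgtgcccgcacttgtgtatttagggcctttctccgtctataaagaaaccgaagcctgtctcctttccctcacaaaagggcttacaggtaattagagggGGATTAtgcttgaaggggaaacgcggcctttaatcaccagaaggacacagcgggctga
Prph2 held TAATCT once on each strand, at 30 to 25 and 62 to 57 bases before the start. Abca4 held TAATCC on the opposite strand, at 58 to 53 bases before the start. None of the motifs was in the window of Rom1, Cdhr1, Fscn2 or either start of Prom1. No promoter sequence was at hand for Rp1 or Rp1l1, so these genes were not searched. Of 32851 promoters of the same length, 6.3% held TAATCC, 7.3% held TAATCT, 12.8% held at least one of them and 16.1% held TGCTGA, so a match in a single gene is not rare.

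At the base of the outer segment, Prom1 (ENSMUSG00000029086, chr5:43993620-44102032, minus strand), a multi-pass membrane protein that is also carried by many stem and progenitor cells, was already present in every library of day 18. It stood at 78.4, 156 and 170 CPM in ESC and 90.7 and 342 CPM in iPSC at day 18. At day 21 it stood at 184, 314 and 494 CPM in ESC and 263 CPM in iPSC. Later values were 417, 574 and 580 CPM in ESC and 393 with 905, 939 and 1682 CPM in iPSC at days 25, 28 and 35. Both libraries of day 35 lay above all of day 18. The rise was 2.71 ± 0.54 (SE, limma, adjusted p = 0.0149), the lowest adjusted p of the 8 genes, and 2.13 without the low-Nrl pair (limma, adjusted p = 0.0624). In TPM, which takes transcript length into account, Prom1 exceeded Prph2 11.04-fold and 12.9-fold in the low-Nrl pair, 1.14-fold to 1.76-fold in the other libraries of day 18, and lay below it in both libraries of day 35, at 0.880 and 0.756 of its level.

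Cdhr1 (ENSMUSG00000021803, chr14:37077857-37098347, minus strand), a cadherin at the leading edge of nascent discs, had the highest level per kilobase of transcript of the 8 in all 5 libraries of day 18. It stood at 109, 787 and 537 CPM in ESC and 112 and 1016 CPM in iPSC at day 18, and at 832, 1355 and 1655 CPM in ESC and 1398 CPM in iPSC at day 21. From day 25 on it stood between 1260 and 2297 CPM in all 7 libraries. The day 21 mean was already 72.5% of the day 35 mean, against 23.4 to 41.1% for the other 7 genes. Its difference between days 35 and 18 was 2.30 ± 0.77 (SE, limma, adjusted p = 0.0851), below the threshold, and 1.14 without the low-Nrl pair (limma, adjusted p = 0.199).

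Abca4 (ENSMUSG00000028125, chr3:122044443-122180123, plus strand), the disc flippase, varied within each day, as the other genes did. Day 18 values were 52.0, 390 and 180 CPM in ESC and 56.2 and 383 CPM in iPSC, and day 21 values 205, 434 and 398 CPM in ESC and 519 CPM in iPSC. At days 25, 28 and 35 it stood at 988, 404 and 355 CPM in ESC and at 544 with 1013, 909 and 1536 CPM in iPSC. It was the only one of the 8 genes whose day 35 libraries overlapped those of day 18, since the ESC library of day 35 lay below 2 of them. For the other 7 both day 35 libraries exceeded all 5 of day 18, as did 10.9% of all tested genes. The Abca4 difference was 2.23 ± 0.79 (SE, limma, adjusted p = 0.0965), and 1.18 without the low-Nrl pair (limma, adjusted p = 0.313).

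Fscn2 (ENSMUSG00000025380, chr11:120361534-120368168, plus strand), the actin-bundling fascin of photoreceptors, had the lowest level per kilobase of transcript of the 8 in all 16 libraries. Its levels were 0.56, 1.39 and 0.62 CPM in ESC and 0.27 and 2.10 CPM in iPSC at day 18, worth about 9, 9, 5, 6 and 57 counts. At day 21 it stood at 0.76, 1.06 and 4.10 CPM in ESC and 1.24 CPM in iPSC. Later values were 5.27, 5.29 and 3.06 CPM in ESC and 3.18 with 3.61, 4.99 and 9.15 CPM in iPSC. The rise to day 35 was 1.76 ± 0.48 (SE, limma, adjusted p = 0.0414), a scale that understates the 6.18-fold ratio of its means because the levels are near the added 1 CPM. Without the low-Nrl pair the ratio was 4.46-fold and the difference 1.46 (limma, adjusted p = 0.192).

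Both axonemal genes rose. Rp1 (ENSMUSG00000025900, chr1:3999557-4409241, minus strand) stood at 5.58, 50.6 and 61.0 CPM in ESC and 8.62 and 570 CPM in iPSC at day 18, and at 186, 390 and 1248 CPM in ESC and 290 CPM in iPSC at day 21. It reached 1107, 914 and 1293 CPM in ESC and 544 with 1544, 2273 and 2708 CPM in iPSC at days 25, 28 and 35. Its rise of 5.45 ± 1.29 (SE, limma, adjusted p = 0.0259) was the largest of the 8 and the eleventh largest of the 15202 genes. Without the low-Nrl pair it was 3.79 (limma, adjusted p = 0.0793), at rank 28 of 15111 genes.

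Rp1l1 (ENSMUSG00000046049, chr14:63992506-64035025, plus strand), the paralog of Rp1, ran below it per kilobase of transcript in all 11 libraries from day 21 on. Day 18 values were 9.16, 42.6 and 60.1 CPM in ESC and 6.95 and 144 CPM in iPSC, and day 21 values 113, 112 and 269 CPM in ESC and 125 CPM in iPSC. At days 25, 28 and 35 it stood at 349, 253 and 266 CPM in ESC and 200 with 367, 533 and 574 CPM in iPSC. The rise was 3.61 ± 0.89 (SE, limma, adjusted p = 0.0305), and 2.34 without the low-Nrl pair (limma, adjusted p = 0.0581).

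The steps in between did not pass the test, and all of these comparisons share the day 18 libraries. For days 21, 25 and 28 against day 18, 0 of 8 were called (limma), where 0, 0.0395 and 0.507% of all tested genes were called higher. The unadjusted p was under 0.05 for 6 of 8 genes at day 21, Abca4 at 0.0528 and Fscn2 at 0.274 being the others, and for 8 of 8 at days 25 and 28. Among all tested genes 18.8, 24.4 and 22% had such a p at days 21, 25 and 28, in either direction. The fitted differences for day 21 ran from 0.44 for Fscn2 to 3.39 for Rp1. Some settings called members at these days: without the second iPSC library of day 18, 2, 8 and 6 of 8 were called for days 21, 25 and 28 (limma), where 1.43, 5.62 and 2.97% of all tested genes were called higher.

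Within the later period, days 28 and 35 were compared with days 21 and 25. None of the 8 genes was called (limma), where 0.691% of tested genes were called higher, and 2 of 8, Prom1 and Fscn2, had an unadjusted p under 0.05, as did 16.4% of all tested genes in either direction. The differences ran from 0.27 with a 95% interval of -1.01 to 1.54 for Abca4 to 1.58 with an interval of -0.46 to 3.62 for Rom1. For 0 of 8 did all 4 later libraries exceed all 7 earlier ones, as 1.09% of all tested genes did. Without the iPSC library of day 35 the difference of Abca4 was -0.19 (limma).

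**Figure D2:**
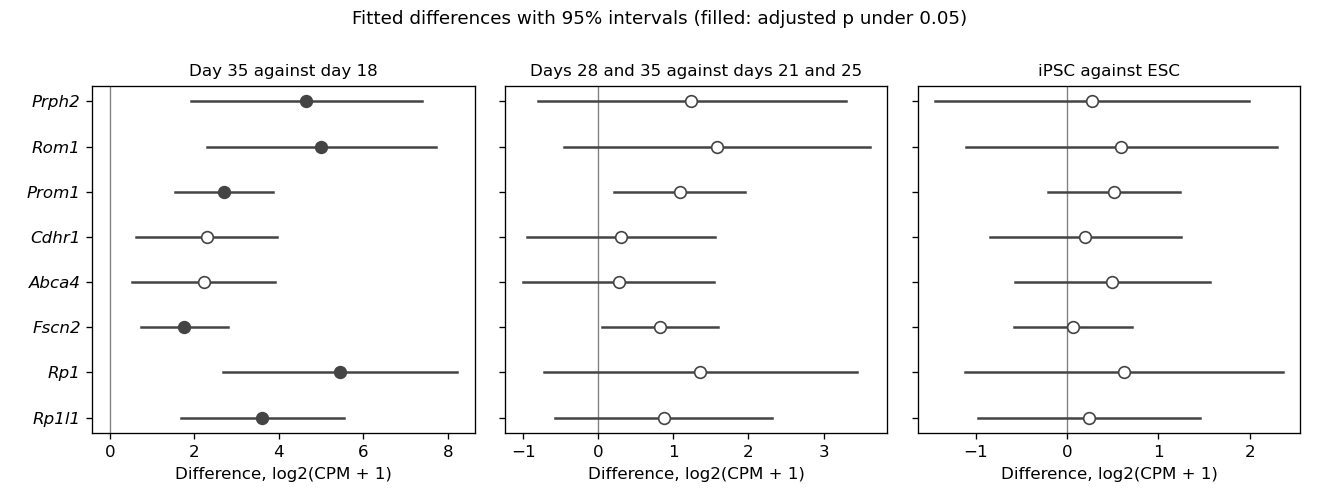
Fitted difference of each gene on the log2(CPM + 1) scale with its 95% interval (limma), for day 35 against day 18, days 28 and 35 against days 21 and 25, and iPSC against ESC. Filled points, adjusted p under 0.05, appear for 6 of 8 genes in the left panel and for 0 of 8 in the other panels.

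Markers of other cell types also differed between the days. Summed CPM of 13 retinal progenitor and cycling genes ran from 534 to 3594 at day 18 and from 62.9 to 599 at day 35. Of these 13 genes 6 fell between days 18 and 35 (limma, adjusted p under 0.05), where 2.99% of all tested genes fell. Mki67 fell by 4.41 and the progenitor ligand Fgf15 fell by 6.16 on the log2(CPM + 1) scale. Without the low-Nrl pair 0 of 13 were called, with a list median of -2.46. Summed CPM of 9 cone genes ran from 137 to 771 at day 18 and from 194 to 380 at day 35, and of 10 amacrine, horizontal and ganglion cell genes from 129 to 332 and from 167 to 219. Ranges for 10 Müller glia genes were 543 to 1083 at day 18 and 252 to 1616 at day 35, and for 9 bipolar cell genes 71.9 to 151 and 93.8 to 427. Of 8 tested bipolar cell genes 3 rose between days 18 and 35, Grm6 by 3.57, Scgn by 2.41 and Prkca by 1.99, and of 10 Müller glia genes 2 rose, Aqp4 by 3.86 and Abca8a by 2.61 (limma, adjusted p under 0.05), beside 4.54% of all tested genes. The rises of Grm6, Scgn, Aqp4 and Abca8a rested mainly on 1 of the 2 day 35 libraries. Their highest levels were 78.8, 23.9, 222 and 22.4 CPM, against day 35 means of 40.0, 13.2, 114 and 12.8 CPM. Fitted differences were positive for 6 of the 8 bipolar cell genes and 7 of the 10 Müller glia genes. Of the 5 genes called higher, Prkca alone was called without the low-Nrl pair. The cone gene Pde6c fell by 3.71 and the horizontal cell gene Onecut1 fell by 3.35, with and without that pair below an adjusted p of 0.05, and no other gene of their 2 lists was called. Of 9 tested pigment epithelium genes 0 were called. All listed markers were in the table, and of the defining ones Rpe65, of the pigment epithelium, was at 0 in every library up to day 28. The part of these cells in the rise of the disc genes was not tested.

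No difference by source passed the test. In the comparison of iPSC with ESC over all days 0 of 8 genes were called (limma), as were 0% of all tested genes, and 0 of 8 had an unadjusted p under 0.05, against 5.53% of all tested genes. The differences ran from 0.07, with a 95% interval of -0.58 to 0.71, for Fscn2 to 0.62, with an interval of -1.12 to 2.36, for Rp1, and their sign changed for 6 of 8 genes when the second iPSC library of day 18 was left out. For the difference in slope per day between the sources the test likewise found 0 of 8 called (limma) and 0 of 8 at an unadjusted p under 0.05, with backgrounds of 0% and 8.11%.

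The last libraries of the 2 sources stood apart in level. At day 35, with 1 library per source and so no replicate check, iPSC exceeded ESC 4.36-fold for Rom1, 4.33-fold for Abca4, 3.38-fold for Prph2, 2.99-fold for Fscn2, 2.90-fold for Prom1, 2.16-fold for Rp1l1, 2.10-fold for Rp1 and 1.67-fold for Cdhr1. At day 28 the ratios were 1.64-fold to 2.49-fold for 7 genes and 0.944 for Fscn2. The ESC library of day 35 also had 556 CPM of Nrl against 1860 in the iPSC library. Its summed CPM over 10 Müller glia genes was 1616 against 252, over 9 bipolar cell genes 427 against 93.8 and over 11 pigment epithelium genes 2176 against 102. Of the last sum 2072 CPM was Ttr, and Rpe65, the defining enzyme of that epithelium, was at 0.0454 CPM. The part of these cells in the difference between the sources at day 35 was not tested.

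Levels of different genes were compared per kilobase of the longest annotated protein-coding transcript of each. That transcript held at most 1.0% of the gene's TPM for Prom1 and 9.0 to 45.9% for Abca4, so their places depend on this choice of length. Per kilobase, Abca4 lay below Prph2 in the iPSC library of day 21, at 71.5 against 102. In TPM it lay above Prph2 there, at 253 against 231. Cdhr1 was the highest of the 8 in 11 of 16 libraries, Rom1 in 3 and Prph2 in 2, and Fscn2 was the lowest in all 16. Cdhr1 led at day 18 with 118 ± 93.3 CPM per kilobase (SD, n = 5), above Prph2 in 5 of 5 libraries, although the ranges of the 2 genes overlapped. At day 35 the means of Prph2, 613 ± 471, and Rom1, 597 ± 529 CPM per kilobase (SD, n = 2), headed the order, followed by Cdhr1 at 417 ± 148. The 2 libraries differed in this order. In ESC Cdhr1 led at 312.5 CPM per kilobase, above Prph2 at 280 and Rom1 at 222.6. In iPSC Rom1 led at 970.5, above Prph2 at 945.5 and Cdhr1 at 522.3. Of the 7 neighbouring pairs in the day 35 order, only Rp1l1 at 62.8 and Fscn2 at 3.56 CPM per kilobase had ranges that did not overlap. Rp1 and Prom1, at 291 and 276 CPM per kilobase, were in turn the higher of the pair in 1 library each. In TPM, over the transcripts held, Prom1 lay above Rp1 in both day 35 libraries, at 641 against 586 in ESC and 1580 against 1043 in iPSC.

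**Figure D3:**
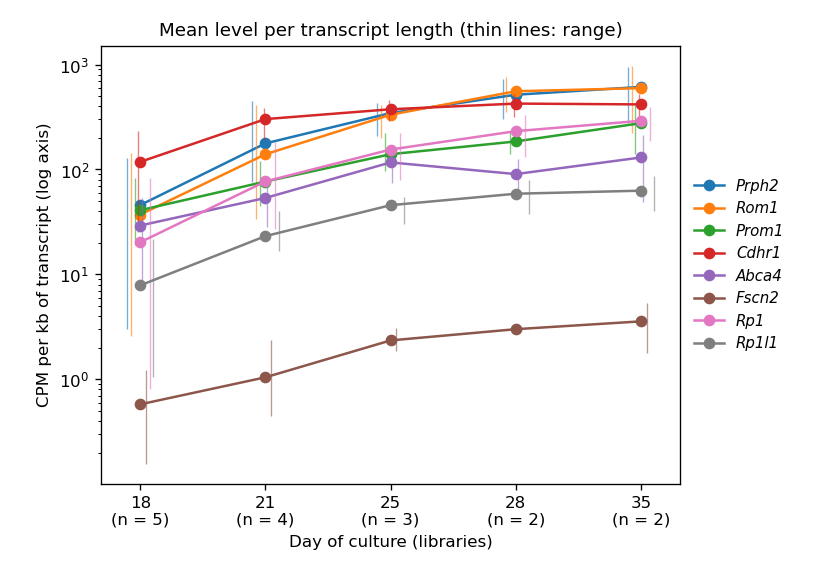
Mean CPM per kilobase of transcript on a log axis for each gene at each day, with thin vertical lines for the range over the libraries of that day. Cdhr1 is the highest mean until day 25, Rom1 and Prph2 lie above it at days 28 and 35, and Fscn2 stays lowest at each day.

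To see whether the genes kept their proportions, the log2 ratio of each to Prph2 was compared between days 28 and 35 (n = 4) and days 21 and 25 (n = 7) with a two-sided exact permutation test over 330 assignments, whose smallest p is 0.00303. Of 7 ratios 0 passed after adjustment. The ratio of Cdhr1 was 1.45 ± 0.91 (SD) in the earlier and 0.43 ± 0.48 in the later libraries, a difference of -1.02 (exact permutation p = 0.0667, adjusted 0.233). For Abca4 it went from 0.02 ± 0.88 to -0.97 ± 0.18, a difference of -0.98 (exact permutation p = 0.0485, adjusted 0.233). For Rom1 it went from -1.21 ± 0.44 to -0.81 ± 0.23, a difference of 0.39 (exact permutation p = 0.133, adjusted 0.272). The ratio of Rp1 moved by 0.13 and that of Prom1 by -0.19, and the groups overlapped for all 7. Without the third ESC library of day 21 the difference of Abca4 was -1.25 (exact permutation, adjusted p = 0.0333).

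Transcript tables were held in full for Prph2, Prom1 and Abca4 and for 3 of 4 transcripts of Rp1. The protein-coding transcripts of Prom1 differ in small exons, and 2 of them are shown with 24 bases of the flanking exons on each side, since their share differed between the days. Capitals mark the exon, read from the sequence of Prom1-206, 5′ to 3′ on the minus strand (GRCm38), and both exons are coding in every transcript that holds them.
The 18-base exon, chr5:44012499-44012516, in Prom1-206 and Prom1-208: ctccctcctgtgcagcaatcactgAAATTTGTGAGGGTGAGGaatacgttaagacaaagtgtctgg
The 27-base exon, chr5:44058626-44058652, in Prom1-202, Prom1-206 and Prom1-208: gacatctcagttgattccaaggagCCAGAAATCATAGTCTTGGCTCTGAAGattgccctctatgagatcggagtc
These lengths add 6 and 9 codons and keep the reading frame.

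The share of the 18-base exon was taken as the TPM of transcripts with it over the TPM of all 10 coding transcripts that hold both flanking exons. At day 18 it was 6.3% and 12.4% in the low-Nrl pair and 41.5, 29.0 and 34.9% in the other libraries. It was 42.5, 33.4, 46.4 and 40.3% at day 21, 56.2, 49.5 and 60.6% at day 25, 66.1 and 59.5% at day 28, and 68.4 and 65.4% at day 35. The means were 24.8 ± 15.0% (SD, n = 5) at day 18 and 66.9 ± 2.1% (SD, n = 2) at day 35. Every library of days 25 to 35 lay above every library of days 18 and 21, and at days 28 and 35 the ESC library lay slightly above the iPSC library. The Prom1 levels in CPM of the 2 libraries of day 35 differed 2.90-fold.

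The share of the 27-base exon went from 31.4 to 52.5% at day 18 to 75.6 and 75.5% at day 35. A 24-base and a 69-base exon near the 3′ end of the coding region, at chr5:44001270-44001293 and chr5:44000777-44000845, showed no such separation. The 24-base exon was held by 46.9 to 75.3% of spanning transcripts at day 18 and by 38% in ESC and 67.2% in iPSC at day 35, and the 69-base exon by 10.6 to 35.3% and by 16.9% in ESC and 10.7% in iPSC. Among single transcripts, Prom1-206, which has both the 18-base and the 27-base exon, went from a mean of 11.1 to 32.3% of the gene's TPM, and Prom1-207 from 17.8 to 3.8%. These shares are estimates that kallisto assigned from short reads among overlapping transcripts, over 827 to 16308 estimated counts of spanning transcripts per library for the 18-base exon, and they carry no test.

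**Figure D4:**
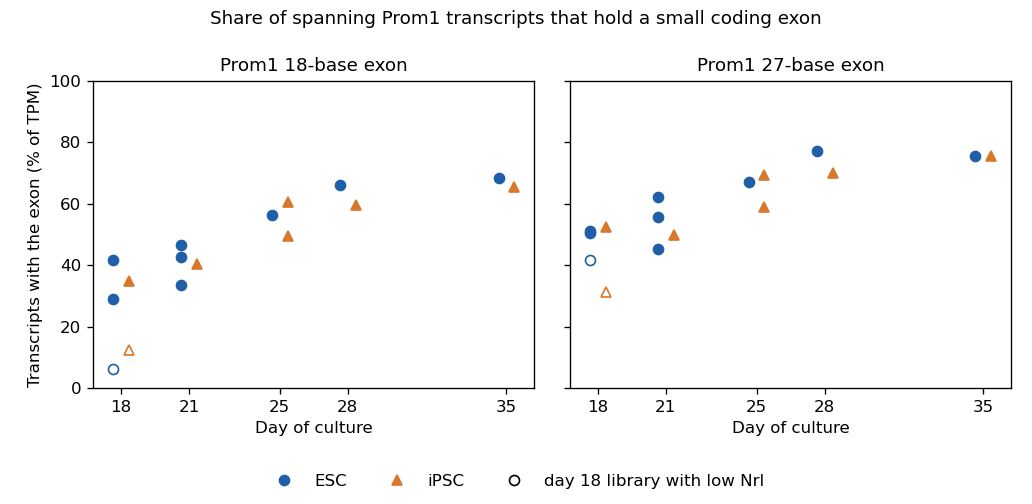
Percent of the TPM of spanning Prom1 coding transcripts that hold the 18-base or the 27-base exon, against day of culture, with 1 point per library (circles ESC, triangles iPSC, open symbols the day 18 libraries with low Nrl). The 18-base share runs from 6.3% to 68.4%, and the 2 sources lie close together at days 28 and 35.

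For Abca4 the full-length coding transcript, of 7263 bases and 50 exons, held 9.0 to 45.9% of the gene's TPM over the 16 libraries and 29.9 to 75.0% of its estimated counts, which weight long transcripts more. At day 18 a mean of 32.0% and 22.3% of the gene's TPM was assigned to 2 transcripts of 1520 and 531 bases annotated as retained introns, which held 7.7 to 34.7% and 1.2 to 8.3% of its estimated counts. The full-length transcript stood at 3.15 and 2.90 TPM in the low-Nrl pair and at 20.2, 8.52 and 35.4 TPM in the other libraries of day 18. It reached 91.7 TPM in the ESC and 118 TPM in the iPSC library of day 35, so that on this measure no library of day 35 overlapped those of day 18, unlike in the gene table. The mean was 7.48-fold higher, going from 14.03 ± 13.8 TPM (SD, n = 5) to 105 ± 18.9 TPM (SD, n = 2), against 4.45-fold for the gene's CPM, and without the low-Nrl pair the ratios were 4.92-fold and 2.98-fold. Its share of the gene's TPM was 9.0 to 19.7% at day 18, and 45.9% in ESC and 16.1% in iPSC at day 35, or 29.9 to 50.4% of the counts at day 18, and 75.0% and 43.5% at day 35. Abca4-207, the other coding transcript, of 3606 bases and 27 exons, held 11.8 to 32.3% of the gene's TPM. For Abca4-207 days 18 and 35 did overlap, with 49.1 TPM in ESC at day 35 and 49.6 TPM in iPSC replicate 2 of day 18. The main coding transcript of Prph2 took 75.1 to 93.6% of that gene's TPM over the 16 libraries, and that of Rp1 took 68.5 to 87.3% of the TPM held.

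The genes most like the 8 across the 16 libraries, by Pearson r of log2(CPM + 1) with the mean profile of the 8, were Gucy2e and Rd3 at 0.991, Lrit1, Ttc8 and Icmt at 0.989, Rpgrip1 and Lrrc48 at 0.985, Tbc1d8 at 0.984 and Syp and FRMPD2 at 0.983. Gucy2e is a retinal guanylate cyclase and Rd3 its binding partner, Ttc8 is a subunit of the BBSome, and Rpgrip1 is a scaffold of the connecting cilium. The 8 genes had a median r of 0.93 with each other over 28 pairs, from 0.77 for Fscn2 with Cdhr1 to 0.99 for Rp1l1 with Prph2. All of these values share the same libraries, and the median r was 0.90 without the low-Nrl pair.

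Genes of the same compartment and of the same protein families were set beside the 8. Of 12 other disc and outer segment membrane genes listed, 11 were in the table and Prcd is not analysed here. Of the 11, 9 rose between days 18 and 35 (limma, adjusted p under 0.05), with a median difference of 4.45. Here and in the lists that follow, the background was 4.54% of all tested genes called higher and 2.99% called lower. The channel subunits Cnga1 and Cngb1 rose by 6.83 and 6.58, and the retinol dehydrogenase Rdh8 rose by 5.78. Tmem30a, at 0.84, and Rbp3, at 2.83, did not pass. With the low-Nrl pair left out, 2 of 11 were called, Rdh8 at 5.36 and the guanylate cyclase Gucy2f at 3.83, and the median was 3.83. Of 23 tested genes of the axoneme, ciliary base and disc morphogenesis 10 rose and 0 fell, with a median of 1.63. They included Pcdh15 at 3.95, Rpgrip1 at 3.30, Fam161a at 3.01 and Cep290 at 2.56. Leaving out the low-Nrl pair, 3 of 23 were called, Tub at 2.59, Fam161a at 2.28 and Wasf3 at 1.74, and the median was 0.99.

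Relatives by protein family were counted in the same way, beside the same 4.54% of all tested genes called higher and 2.99% called lower. Of 23 tested tetraspanins other than Prph2 and Rom1, 1 rose, Tspan7 by 1.38. This count is near the share over all genes, and the median was 0.06, beside 0.05 for all genes. Of 10 tested A-class ABC transporters 1 rose, Abca8a by 2.61, which is also one of the Müller glia markers. Of 8 doublecortin-domain genes, the family of Rp1 and Rp1l1, 0 rose and 1, Dclk2, fell by 0.99. Fscn1 and Prom2, the tested relatives of Fscn2 and Prom1, stood at -1.34 and 0.35 and did not pass. Of 8 tested cadherin-family genes 1 rose, Pcdh15, and of 13 rod transcription factors 2 rose, Esrrb by 4.16 and Casz1 by 1.87, while Nrl at 3.38 did not pass (limma, adjusted p = 0.109). Esrrb, at 4.06, was the only gene called in these 6 lists without the low-Nrl pair (limma, adjusted p = 0.00962).

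**Figure D5:**
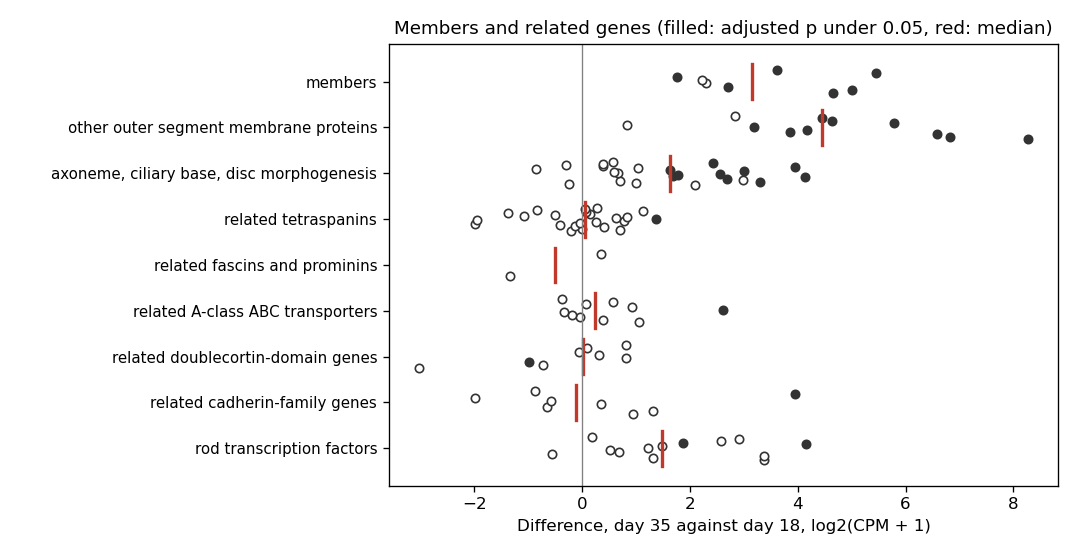
Fitted difference between days 35 and 18 on the log2(CPM + 1) scale for the 8 disc genes and for each tested gene of 8 related lists, with filled points for adjusted p under 0.05 (limma) and a red line at the list's median. The 8 genes have a median of 3.16 and other outer segment membrane genes 4.45, while the tetraspanins have 0.06.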

How the data were processed

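Gene values deposited by the authors are a score, (log2(CPM + 1)) squared minus 1, found by comparing the tables (8495 of 8688 genes, tolerance 0.02 log2), and were turned back into CPM. Per the series' design text, the authors trimmed with Trimmomatic 0.36, quantified with kallisto 0.42.5 against Ensembl release 84 (GRCm38.p4 in the submitters' processing notes), and used tximport and edgeR. The deposited TPM and estimated counts per transcript stop at 65535 rows, so none was held for Rom1, Cdhr1, Fscn2 or Rp1l1. Positions come from GENCODE M21 (GRCm38).

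Tests used limma 3.58.1 with trend in R 4.3.3 on log2(CPM + 1). The 15202 genes tested reached 1 CPM in 2 libraries or more, with Benjamini-Hochberg adjustment at 0.05. The fit was tested on simulated data. All 8 genes were named whatever their test, then the 10 genes most alike by Pearson r (mean CPM at least 5), and list members as examples, chosen after their values were seen. Members and lists were chosen with earlier results of these data known. Alternatives were edgeR 4.0.16, DESeq2 1.42.0, other filters, scalings and pseudocounts, array weights, a replicate block, single sources and each library left out.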

Additional observations from a re-analysis of the deposited data

Results flagged for a closer look

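The third ESC library of day 21 lay far above the other 3 libraries of that day for Prph2 and Rp1l1, 2 of the 16 groups screened (8 genes at days 18 and 21). On the log2(CPM + 1) scale its gap to the next library took up 0.832 of the day's range for Prph2 and 0.872 for Rp1l1, above the value that chance exceeds in about 1 in 20 groups of 4. Its levels were 1210 CPM of Prph2 against 202 to 273 CPM, and 269 CPM of Rp1l1 against 112 to 125 CPM. It was also the highest of the day for Rom1, Rp1 and Fscn2, at 8.53-fold, 4.32-fold and 4.02-fold the mean of the others, with gaps of 0.765, 0.611 and 0.777 of the range that did not pass that value. The same library had 1915 CPM of Nrl against 321 to 428 CPM, and 9.60 CPM of Mki67 against 43.5 to 135 CPM in the others. Its Abca4, at 398 CPM, lay inside the range of the other 3. The part of these differences in the levels of Prph2 and Rp1l1 was not tested.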

How the results depend on the processing

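Direction held for all 8 genes in every setting for day 35 against day 18 and for the slope, where a value was given. The counts below are of the 8 genes called at an adjusted p under 0.05 for days 21, 25, 28 and 35 against day 18 and for the slope per day, in that order, and they were 0, 0, 0, 6 and 6 in the reported fit (limma). Array weights gave 7, 8, 8, 4 and 8, where 19.3, 31.3, 17.3, 1.43 and 9.76% of all tested genes were called higher and 20.4, 31.5, 20.1, 0.487 and 10.1% lower. Without a filter on low values they were 0, 0, 0, 1 and 6, where 0.00437, 0.00875, 0.236, 2.17 and 3.79% of all tested genes were called higher. Count sums were used for the 4 genes whose transcript sums kept a constant ratio to the gene's CPM, Rp1 with 3 of 4 transcripts. Of these 4 genes, edgeR with TMM or RLE called 0, 0, 0, 1 and 1. Of all genes so tested, TMM called 0, 0.0801, 0.423, 4.66 and 7.26% higher and RLE 0, 0.263, 0.412, 4.74 and 7.39%. DESeq2 called 0, 3, 2, 3 and 3 of the 4, where 0.795, 6.37, 4.16, 8.72 and 11.1% of all genes so tested were called higher. Without the low-Nrl pair of day 18 the counts were 0, 0, 0, 0 and 5, where 0, 0, 1, 109 and 482 of 15111 tested genes were called higher. Contrasts inside a source, with the spread pooled over all 16 libraries, gave 0 in each comparison for ESC and 0, 0, 0, 0 and 2 for iPSC. They compare fewer libraries, and for the slope 91 and 545 of 15202 tested genes were called higher in ESC and iPSC. Leaving out single libraries gave 0 to 2, 0 to 8, 0 to 6, 0 to 8 and 2 to 8. For day 35 the low values came without the iPSC library of day 35 (0), without iPSC replicate 1 of day 18 (1), and without ESC replicate 1 of day 18 or the ESC library of day 35 (2 each), and without ESC replicate 3 of day 18 the count was 3. For day 35, the reported fit called 690 of 15202 tested genes higher. The number was 247 of 15164 and 335 of 15168 without iPSC and ESC replicate 1 of day 18. Without ESC replicate 3 of day 18 it was 449 of 15157. Without ESC and iPSC replicate 2 of day 18 it was 899 of 15054 and 978 of 15198. For the slope, the reported fit called 1036 of 15202 higher. Without iPSC replicate 1 of day 18 it was 632 of 15164, and without ESC replicate 3 of day 21 it was 1289 of 15187. The calls over all genes thus moved between settings too. Fits without a library of day 35 rest on 1 library at that day. The cause of these shifts was not tested. Counts of the related lists and markers without the low-Nrl pair were chosen after seeing the data.

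Whether the replicate numbers pair the libraries is not known. Of 13 same-numbered pairs, 10 had a correlation of their deviations from the group means above 0.1, the range being 0.0 to 0.64. Pairs of unlike number ran from -0.66 to 0.66. A fit with the number as a replicate block called 0, 8, 8, 8 and 8 genes, where 0, 8.28, 8.29, 9.95 and 10.3% of all tested genes were called higher. It called 1 of 8 for days 28 and 35 against days 21 and 25, where 192 of 15202 tested genes were called higher. The reported fit called 0 of 8 there.

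Signs changed in uncalled comparisons. Within ESC, days 28 and 35 minus days 21 and 25 was -0.05 for Cdhr1 and -0.59 for Abca4, and the log2 ratio of Prom1 to Prph2 moved by 0.11. With a library left out, that difference of Abca4 ran from -0.19 to 0.75 and the change in the ratio of Rp1 to Prph2 from -0.03 to 0.25. The count of ratios past the threshold ran from 0 to 1. For iPSC minus ESC, array weights gave -0.22 for Fscn2 and -0.10 for Rp1l1. With a library left out, that difference ran from -0.32 to 0.92 for Prph2, -0.12 to 1.18 for Rom1, -0.13 to 0.62 for Cdhr1, -0.13 to 0.21 for Fscn2, -0.19 to 1.20 for Rp1 and -0.25 to 0.74 for Rp1l1. Depth limits Fscn2 most, since 4 of its 5 day 18 levels were worth about 5 to 9 counts.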
